A study of Mus musculus with 18 samples.

Results

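The BCL2 family of apoptosis regulators was followed through ribosome footprints and total RNA of mouse medulloblastoma cells. Its 10 genes were chosen by symbol: Mcl1, Bcl2, Bcl2l1, Bcl2l11, Bax, Bak1, Bid, Bad, Bbc3 and Pmaip1. Of these, 7 had a row in the deposited table, which held 15307 features after rows with equal counts were merged, 9787 of them with a symbol. Bcl2, Bcl2l11 and Pmaip1 had no row under those symbols and were not analysed here. All 7 genes with a row passed the filter on low counts in every measure, so none of them was dropped. The cells were of the GTML line, brain tumour cells that carry a human MYCN transgene, which drives the tumour in progenitors of the hindbrain under a glutamate transporter promoter. All groups shared this genotype, and all were grown in neurobasal medium with B27, EGF and bFGF. Over 3 h the control group was given DMSO, the second group 50 nM of Rapalink-1 and the last 5 nM of rapamycin. Each group had 3 replicates in each assay, which gave 18 libraries. Rapamycin inhibits the growth kinase mTOR allosterically, and Rapalink-1 carries a rapamycin part and an ATP-competitive mTOR inhibitor in a single linked molecule. The doses of the drugs differed, so values for them are set side by side at these doses only.

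Proteins of the BCL2 family decide whether the outer mitochondrial membrane stays intact. The guardians, MCL1, BCL-XL (from Bcl2l1) and BCL2, hold the pore formers BAX and BAK (from Bak1) in check. BH3-only proteins such as BID, BAD, PUMA (from Bbc3), BIM (from Bcl2l11) and NOXA (from Pmaip1) answer to stress, either by blocking guardians or by activating the pore formers. When the pores open, cytochrome c leaves the mitochondrion and caspases are activated. MCL1 is a protein of short half-life, so its amount follows its synthesis closely, and its translation is known to depend on mTOR in several tumour types.

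Footprint libraries held from 7692625 to 14150068 reads and RNA libraries from 6788365 to 13300292. Levels are given in CPM, read counts divided by a library size, in the usual CPM unit, scaled with TMM factors, which assume that most genes do not change. The labels name no spike-in, and every change is therefore relative to the rest of a library. Changes are log2 fold changes ± standard error from edgeR's quasi-likelihood test with 3 replicates per group, and every adjusted p is over all genes tested in a comparison. Translational efficiency compares the footprint change of a gene with its RNA change, in a fit over all 18 libraries. The labels do not say that replicates came from separate cultures, so p-values measure the spread between these samples, which may be technical. In such bulk samples, fewer cells of a kind and less RNA per cell cannot be told apart. The names of the DMSO and Rapalink-1 footprint libraries carry RP-B and those of rapamycin carry RP, and this difference cannot be told apart from the treatment. In both assays, the S numbers that end the names of rapamycin libraries come after all those of DMSO and Rapalink-1. What the S numbers mark is not stated, and this order cannot be told apart from the treatment either.

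Of 9 markers of the neural progenitor and granule neuron lineage, 7 had a row and no row was named Sox2 or Atoh1. Their summed level was 1200 to 1340 CPM over all RNA libraries. In footprints it was 1320 to 1400 with DMSO, 1840 to 1890 with Rapalink-1 and 1290 to 1350 with rapamycin. Mycn and Mki67 were its largest terms, with mean footprints of 742 and 374 CPM with DMSO and 898 and 610 with Rapalink-1. The sum therefore mostly follows these genes. With Rapalink-1, 6 of the 7 were called higher in footprints, beside 25.7% of all genes, but Nes was not (50.9 CPM with DMSO, 47.6 with Rapalink-1). Rows existed for 1 of 5 oligodendrocyte markers, 1 of 6 vascular and fibroblast markers and 2 of 7 microglia and blood markers. Cnp, the oligodendrocyte marker, stood at 7.45 to 10.4 CPM in DMSO RNA, 12.3 to 16.4 with Rapalink-1 and 11.3 to 11.6 with rapamycin, and in footprints its groups overlapped. Acta2, the vascular marker, stood at 280 to 318 CPM in DMSO footprints, 238 to 253 with Rapalink-1 and 245 to 272 with rapamycin. The microglia and blood pair summed to 56.2 to 85.3 CPM in DMSO footprints, 23.2 to 25.8 with Rapalink-1 and 61.1 to 75.9 with rapamycin. In all RNA libraries it summed to 103 to 143. Most of this footprint sum was Itgam, with a mean of 71.5 CPM with DMSO and 22.2 with Rapalink-1. Hbb-bs footprints had means of 1.43 and 2.53 CPM. Among the microglia and blood markers without a row were Ptprc, Csf1r, Cd68 and Aif1. The part of such cells in the results below was not tested.

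With Rapalink-1, footprints of Mcl1 fell while those of Bcl2l1 and of the BH3-only gene Bbc3 rose. The change of Mcl1 and Bcl2l1 was in translational efficiency, and that of Bbc3 was in RNA as well as footprints. With rapamycin, footprints of Mcl1 stood at the DMSO level, Bcl2l1 RNA rose, and Bax footprints rose. At an adjusted p under 0.05, 2 of the 7 genes were called higher and 2 lower in RNA with Rapalink-1, beside 19.4 and 18.8% of all genes (38.2% in either direction). In footprints 2 were higher and 1 lower, beside 25.7 and 28% (53.7% in either direction). In efficiency 1 was higher and 1 lower, beside 22.3 and 19.9% (42.2% in either direction). With rapamycin, 1 was higher and 1 lower in RNA, beside 13.6 and 10.5% (24.1% in either direction). In footprints 1 was higher and 0 lower, beside 8.75 and 9.4% (18.1%), and in efficiency 0 were higher and 1 lower, beside 6.52 and 9.85% (16.4%). With 7 genes these shares do not set the family apart from all genes, and the account that follows is about single members. Under library totals without TMM, the efficiency count with Rapalink-1 became 6, with 5 higher and 1 lower in place of 1 and 1. The same setting moved the median efficiency change of all genes from 0.058 to 0.43 and the count of all called genes from 2455 higher and 2182 lower to 5563 and 841. The median footprint change of all genes moved likewise from 0.011 to 0.28, and that of RNA from 0.002 to -0.14.

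**Figure D1:**
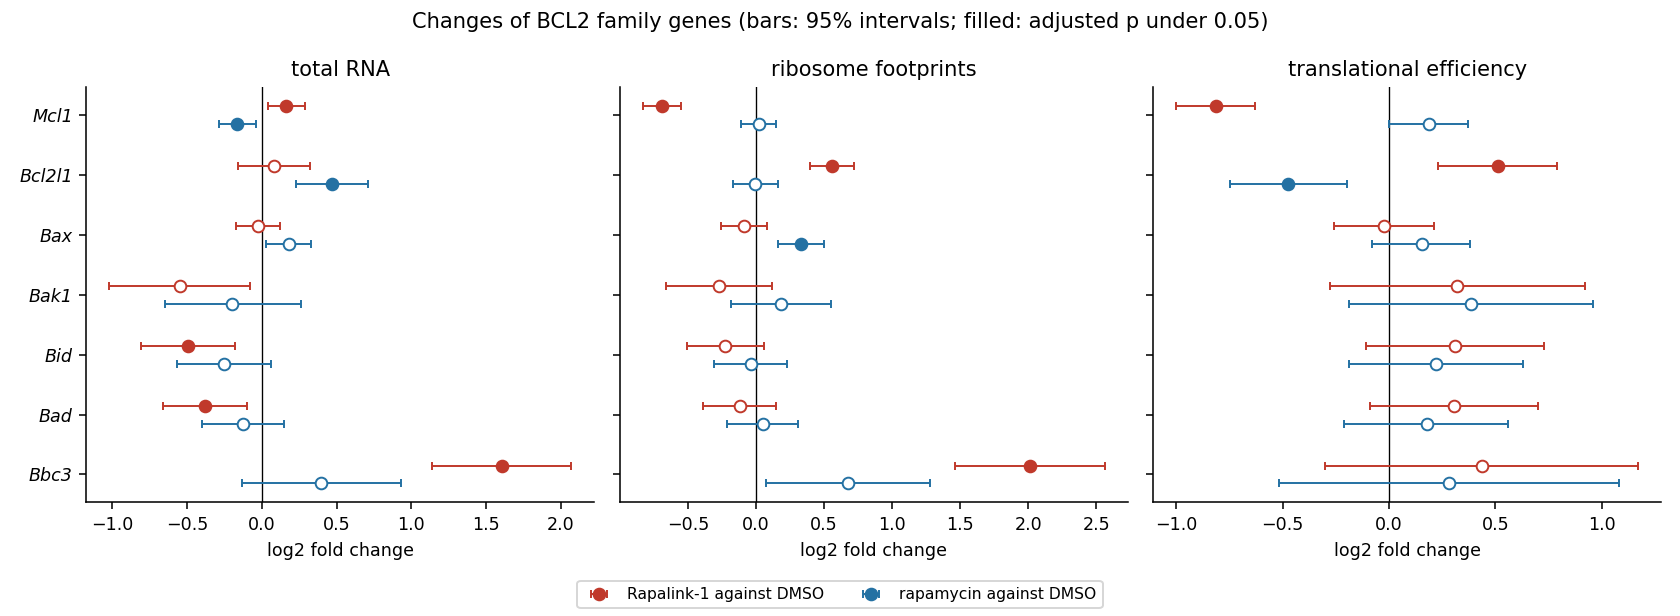
Log2 fold changes of 7 BCL2 family genes against DMSO (horizontal axes) in total RNA, ribosome footprints and translational efficiency. Red is Rapalink-1, blue is rapamycin, bars are 95% intervals from the fit with 3 replicates per group, and filled points have an adjusted p under 0.05. Mcl1 lies left of 0 with Rapalink-1 in footprints and efficiency, Bcl2l1 lies on opposite sides of 0 for the drugs in efficiency, and Bbc3 has the largest changes with Rapalink-1 in RNA and footprints.

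Mcl1, the short-lived guardian, spans 3:95656944-95663179 in build GRCm38, is protein coding and overlaps no other annotated gene. mRNAs that mTOR controls most strongly start with a terminal oligopyrimidine tract (TOP), a C at the cap followed by further C or T, so the first bases of the guardians' transcripts are shown here. They come from RefSeq (GRCm38.p6), 5′ to 3′, and capitals mark the 5 bases that the search for a TOP start read.
Mcl1, 3:95658721-95658735, plus strand: GGGAAgtcctcgcct
Bcl2l1 start 1, 2:152828475-152828489, minus strand: TCAGAatcctgctcg
Bcl2l1 start 2, 2:152830703-152830717, minus strand: AGTAGgaggcggaga
Bcl2l1 start 3, 2:152831714-152831728, minus strand: TTTGCgtctcgggct
None of the 12 annotated starts searched for the 7 genes opened with a C followed by 4 bases that are each C or T. For Mcl1, Bcl2l1 and Bbc3 these starts lie inside the annotated span of the gene, and its outer 5′ end was not searched. Of all 32851 annotated starts, 2.51% did, and of 74 starts of cytosolic ribosomal protein genes, 17.6% did. So even most annotated starts of ribosomal protein genes, whose mRNAs are known for this tract, did not match, and which start these cells used was not measured.

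Mcl1 footprints stood at 112, 118 and 116 CPM in the DMSO libraries. They stood at 70.4, 72.3 and 71.5 CPM with Rapalink-1 and at 105, 128 and 118 CPM with rapamycin. The Rapalink-1 libraries were all below every other library and lay within 2 CPM of each other, while rapamycin spanned the DMSO range. Each of the 9 values rests on 626 to 1498 reads. The fold change with Rapalink-1 was -0.69 ± 0.068 (adjusted p = 3.8e-11), and the mean was 0.619 of the DMSO mean. With rapamycin the change was 0.02 ± 0.066 (adjusted p = 0.89), with a 95% interval from -0.11 to 0.15.

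Mcl1 RNA did not follow its footprints. It stood at 125, 141 and 114 CPM with DMSO, at 140, 140 and 147 CPM with Rapalink-1 and at 115, 108 and 117 CPM with rapamycin. Both drug groups overlapped the DMSO range. The changes were 0.16 ± 0.061 (adjusted p = 0.028) with Rapalink-1 and -0.16 ± 0.062 (adjusted p = 0.046) with rapamycin, in opposite directions. Neither call was firm. The first was lost under library totals (0.03, adjusted p = 0.74), in the DESeq2 Wald test (adjusted p = 0.066), and when any library but DMSO replicate 2 was left out (adjusted p from 0.051 to 0.20). It also missed the threshold in the authors' deposited table, at 0.13 with an adjusted p of 0.087. The second was lost with the DESeq2 Wald test (adjusted p = 0.059), under library totals (0.054), with only the treatments compared (0.06), with a replicate block (0.076) and when any library but DMSO replicate 3 was left out (from 0.061 to 0.32).

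Efficiency of Mcl1 changed by -0.81 ± 0.094 with Rapalink-1 (adjusted p = 2.9e-10) and by 0.19 ± 0.093 with rapamycin (adjusted p = 0.18). Under library totals the first value was -0.45 (adjusted p = 6.4e-05) and the footprint change was -0.42 (adjusted p = 2.5e-06). The log2 ratio of footprint to RNA CPM of libraries with the same number was -0.15, -0.25 and 0.03 with DMSO and -0.99, -0.95 and -1.04 with Rapalink-1. With rapamycin it was -0.13, 0.24 and 0.02. The 3 Rapalink-1 ratios lay apart from the other 6.

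Bcl2l1 encodes BCL-XL, the long-lived guardian, and spans 2:152758732-152833803. Its interval overlaps Cox4i2 and a pseudogene, neither of which has a row. Footprints stood at 49.4, 45.0 and 47.9 CPM with DMSO, at 65.7, 70.4 and 74.5 CPM with Rapalink-1 and at 48.9, 50.7 and 42.8 CPM with rapamycin. All Rapalink-1 libraries were above all others, the reverse of the order seen for Mcl1. The change with Rapalink-1 was 0.56 ± 0.079 (adjusted p = 1.3e-07) and that with rapamycin -0.01 ± 0.08 (adjusted p = 0.97), with a 95% interval from -0.17 to 0.16.

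Bcl2l1 RNA showed the other drug apart. It stood at 15.9, 16.2 and 19.7 CPM with DMSO, at 19.5, 16.0 and 18.7 CPM with Rapalink-1 and at 25.9, 24.1 and 20.9 CPM with rapamycin. Only the rapamycin libraries lay outside the DMSO range, all above it. The change was 0.08 ± 0.12 with Rapalink-1 (adjusted p = 0.63) and 0.47 ± 0.12 with rapamycin (adjusted p = 0.0023). These values rest on 138 to 301 reads, fewer than the 321 to 814 of the footprints.

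Efficiency of Bcl2l1 therefore moved in opposite directions at these doses. It rose by 0.51 ± 0.14 with Rapalink-1 (adjusted p = 0.0024), or 0.88 under library totals (adjusted p = 3.8e-07), and fell by 0.48 ± 0.14 with rapamycin (adjusted p = 0.012). The call with rapamycin was lost without DMSO replicate 1 (-0.39, adjusted p = 0.11) or rapamycin replicate 1 (-0.44, adjusted p = 0.057). The log2 ratios of footprint to RNA CPM were 1.64, 1.47 and 1.28 with DMSO, 1.75, 2.14 and 2.00 with Rapalink-1, and 0.92, 1.08 and 1.04 with rapamycin. None of the 3 groups overlapped another. In RNA and footprints taken alone, by contrast, 1 drug group overlapped DMSO.

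**Figure D2:**
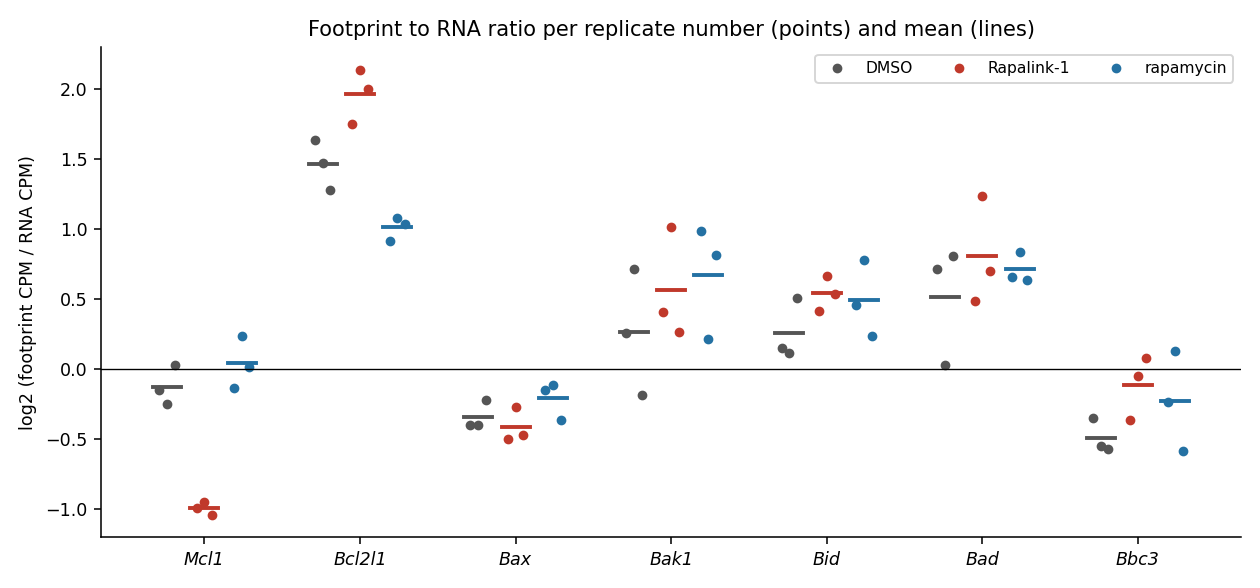
Log2 ratio of footprint CPM to RNA CPM (vertical axis) for 7 BCL2 family genes, 1 point per pair of libraries with the same treatment and replicate number, with lines at the means of 3. Mcl1 with Rapalink-1 lies at -1.04 to -0.95, below its other 6 points, and the 3 treatments of Bcl2l1 lie apart. Levels of different genes are not comparable here, since the ratio also depends on how much of each mRNA is coding.

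The counts of both guardians within a library give a ratio that no scaling can move. It was computed after the values above had been seen and is a description. In footprints there were 2.27, 2.62 and 2.43 Mcl1 reads per Bcl2l1 read with DMSO, 1.07, 1.03 and 0.959 with Rapalink-1, and 2.14, 2.52 and 2.76 with rapamycin. The Rapalink-1 libraries thus had about as many footprint reads of one guardian as of the other, and all other libraries had at least 2.14 of Mcl1 for each of Bcl2l1. Coding lengths were not at hand, so equal reads do not mean equal ribosome density, and only the change between treatments is read. In RNA the ratio was 7.84, 8.68 and 5.79 with DMSO and 7.20, 8.76 and 7.84 with Rapalink-1, which overlapped. With rapamycin it was 4.42, 4.50 and 5.59, all below the lowest DMSO library.

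**Figure D3:**
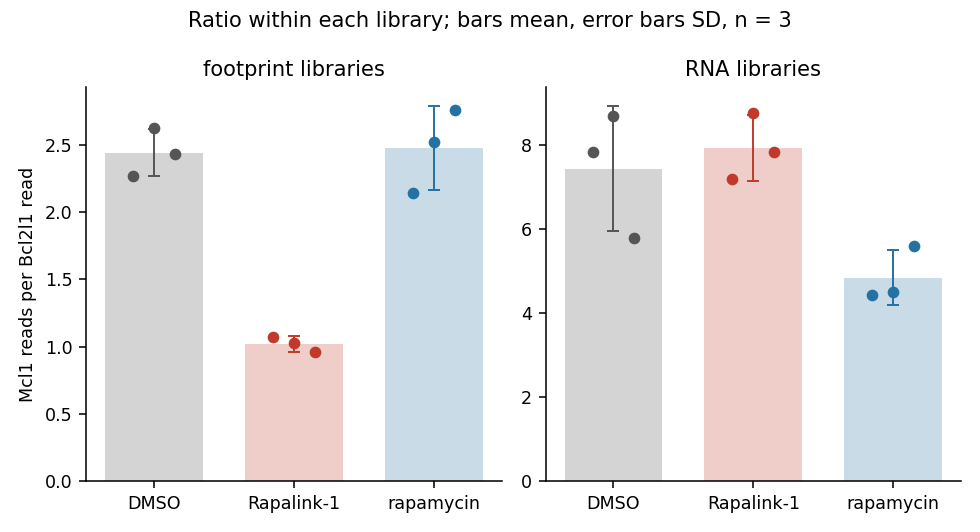
Mcl1 reads per Bcl2l1 read (vertical axis, from 0) in each footprint and RNA library, by treatment, with bars at the mean and error bars of 1 SD (n = 3). The footprint mean is 2.44 with DMSO, 1.02 with Rapalink-1 and 2.47 with rapamycin, and the RNA mean is 7.44, 7.93 and 4.84. The ratio is of read counts and takes no account of the lengths of the genes.

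Among the pore formers, Bax had enough reads to show small changes and Bak1 had few. Bax spans 7:45461695-45466903 and overlaps no annotated gene. Its footprints stood at 43.5, 52.3 and 50.8 CPM with DMSO, at 42.9, 46.1 and 47.9 CPM with Rapalink-1 and at 63.3, 64.6 and 55.2 CPM with rapamycin. The rapamycin libraries were above all DMSO libraries, and the Rapalink-1 libraries overlapped them. Bax footprints rose by 0.33 ± 0.082 with rapamycin (adjusted p = 0.0033), a call lost without DMSO replicate 1 (0.24, adjusted p = 0.061), and stood at -0.09 ± 0.085 with Rapalink-1 (adjusted p = 0.38). Bax RNA was 61.8 ± 6.31 CPM with DMSO, 60.9 ± 5.43 with Rapalink-1 and 70.3 ± 0.373 with rapamycin (SD, n = 3). Neither RNA change was called (-0.03, adjusted p = 0.81, and 0.18, adjusted p = 0.063), but the rapamycin one passed without DMSO replicate 2 (0.27, adjusted p = 0.0052). Its efficiency values were -0.02 ± 0.12 and 0.15 ± 0.11, neither called (adjusted p = 0.90 and 0.41). The value with Rapalink-1 became 0.35 under library totals (adjusted p = 0.0087).

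Bak1, which encodes the pore former BAK, spans 17:27019812-27028627 and overlaps Ggnbp1, which has no row. Its libraries held 34 to 103 reads each. RNA stood at 5.56, 4.10 and 7.13 CPM with DMSO, at 3.88, 2.97 and 4.31 CPM with Rapalink-1 and at 3.8, 5.68 and 4.61 CPM with rapamycin. The groups overlapped. The RNA change with Rapalink-1 was -0.55 ± 0.23 (adjusted p = 0.055). It passed at 0.024 in the authors' deposited table and under library totals (-0.69, adjusted p = 0.014), and without DMSO replicate 2 (-0.74, adjusted p = 0.014) or Rapalink-1 replicate 3 (adjusted p = 0.049). Footprints were 6.56 ± 0.227 CPM with DMSO, 5.46 ± 0.476 with Rapalink-1 and 7.43 ± 0.758 with rapamycin (SD, n = 3), and neither drug's change from DMSO was called (-0.27, adjusted p = 0.24, and 0.18, adjusted p = 0.54). The efficiency changes of Bak1 were 0.32 and 0.38, neither called (adjusted p = 0.41 for both), with wide 95% intervals from -0.28 to 0.92 and from -0.19 to 0.96.

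Of the BH3-only genes, Bid and Bad fell in RNA with Rapalink-1 and Bbc3 rose. Bid, whose product carries the signal of death receptors to mitochondria, spans 6:120893119-120917062 and overlaps a pseudogene without a row. Bid RNA stood at 11.9, 11.9 and 11.3 CPM with DMSO, at 8.40, 7.33 and 9.25 CPM with Rapalink-1 and at 9.15, 8.31 and 12.2 CPM with rapamycin. The Rapalink-1 libraries were all below DMSO, and the rapamycin libraries lay on both sides of it. The changes were -0.49 ± 0.16 (adjusted p = 0.010) and -0.26 ± 0.15 (adjusted p = 0.24), and the first was lost without Rapalink-1 replicate 2 (-0.41, adjusted p = 0.065). Bid footprints were 14.1 ± 1.73, 12.1 ± 1.18 and 13.7 ± 1.01 CPM in the same order (SD, n = 3). Neither footprint change was called (-0.22, adjusted p = 0.18, and -0.04, adjusted p = 0.88), and neither was the efficiency change (0.31, adjusted p = 0.24, and 0.22, adjusted p = 0.53).

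Bad, whose product binds BCL-XL and is held inactive by growth factor signalling, spans 19:6941861-6951905. Its interval overlaps Gpr137, whose row held 1.94 to 8.36 CPM, and a pseudogene without a row, so shared reads cannot be told apart where the counting did not use strand. Bad RNA stood at 12.1, 15.7 and 13.4 CPM with DMSO, at 11.6, 9.34 and 10.7 CPM with Rapalink-1 and at 11.9, 13.2 and 12.7 CPM with rapamycin. The Rapalink-1 libraries were below DMSO by a narrow gap, and rapamycin overlapped DMSO. The RNA change with Rapalink-1 was -0.38 ± 0.14 (adjusted p = 0.026), and it was lost without DMSO replicate 2 (-0.26, adjusted p = 0.20), Rapalink-1 replicate 2 (-0.30, adjusted p = 0.13) or Rapalink-1 replicate 3 (adjusted p = 0.055). With rapamycin it was -0.12 ± 0.14 (adjusted p = 0.57). Bad footprints were 19.8 ± 3.72 CPM with DMSO, 18.6 ± 3.07 with Rapalink-1 and 20.7 ± 2.53 with rapamycin (SD, n = 3), with changes of -0.12 (adjusted p = 0.48) and 0.05 (adjusted p = 0.85). Its efficiency values were 0.31 ± 0.20 and 0.18 ± 0.19 (adjusted p = 0.22 and 0.60). Under library totals the values with Rapalink-1 became 0.67 for Bad, 0.68 for Bid and 0.69 for Bak1, all past the test (adjusted p = 0.0027, 0.0048 and 0.045).

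Bbc3, which encodes PUMA, a BH3-only protein that binds every guardian, had the largest changes of the members in RNA and footprints with Rapalink-1. It spans 7:16308398-16318334 and overlaps no annotated gene. Bbc3 is a textbook target of p53 and of FoxO factors, so the FoxO motif TGTTTAC was searched on both strands from 250 bases before to 50 after each start searched above. It occurred in 1 of the 12 windows of all members and in 3.65% of all windows. That window was 1 of 3 of Bbc3, with the first base of the motif at -167 from start 2. Other motifs were searched in the same windows. The E-box CACGTG, in 7.15% of all windows, occurred at -64 from Bbc3 start 3 and at -9 and 36 in the Bax window. The ATF4 motif TGATGNAA, in 3.97% of all windows, occurred in no member window. A p53 motif was not searched for. The FoxO match is printed with 10 bases on each side, from RefSeq (GRCm38.p6), with the motif in capitals.
Bbc3, 7:16310084-16310110, plus strand: ctggcgggttTGTTTACaaacaatggg
This letter match is a description and was not tested as a binding site.

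Bbc3 RNA stood at 2.69, 2.88 and 1.71 CPM with DMSO, at 7.35, 7.77 and 7.90 CPM with Rapalink-1 and at 3.8, 2.40 and 3.89 CPM with rapamycin. Its footprints stood at 2.11, 1.96 and 1.16 CPM with DMSO, at 5.73, 7.51 and 8.35 CPM with Rapalink-1 and at 3.24, 2.63 and 2.60 CPM with rapamycin. In both assays the Rapalink-1 libraries were above all 6 others. The rapamycin libraries were above DMSO in footprints and overlapped it in RNA. Counts were low, 11 to 33 reads per DMSO library against 65 to 91 with Rapalink-1.

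With Rapalink-1, Bbc3 RNA rose by 1.61 ± 0.23 (adjusted p = 2.4e-07) and footprints by 2.01 ± 0.27 (adjusted p = 5.5e-08), that is 3.16 and 4.13 times the DMSO means. With rapamycin the changes were 0.40 ± 0.26 (adjusted p = 0.29) and 0.68 ± 0.30 (adjusted p = 0.11), with 95% intervals from -0.13 to 0.93 and from 0.07 to 1.28. Efficiency was 0.44 ± 0.37 and 0.28 ± 0.40 (adjusted p = 0.35 and 0.71), not called for either drug. The calls of Bbc3 with Rapalink-1 held under every alternative run. Per Mcl1 read, a library held 0.0151 ± 0.00464 Bbc3 reads in footprints with DMSO, 0.101 ± 0.018 with Rapalink-1 and 0.0245 ± 0.0056 with rapamycin (SD, n = 3).

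**Figure D4:**
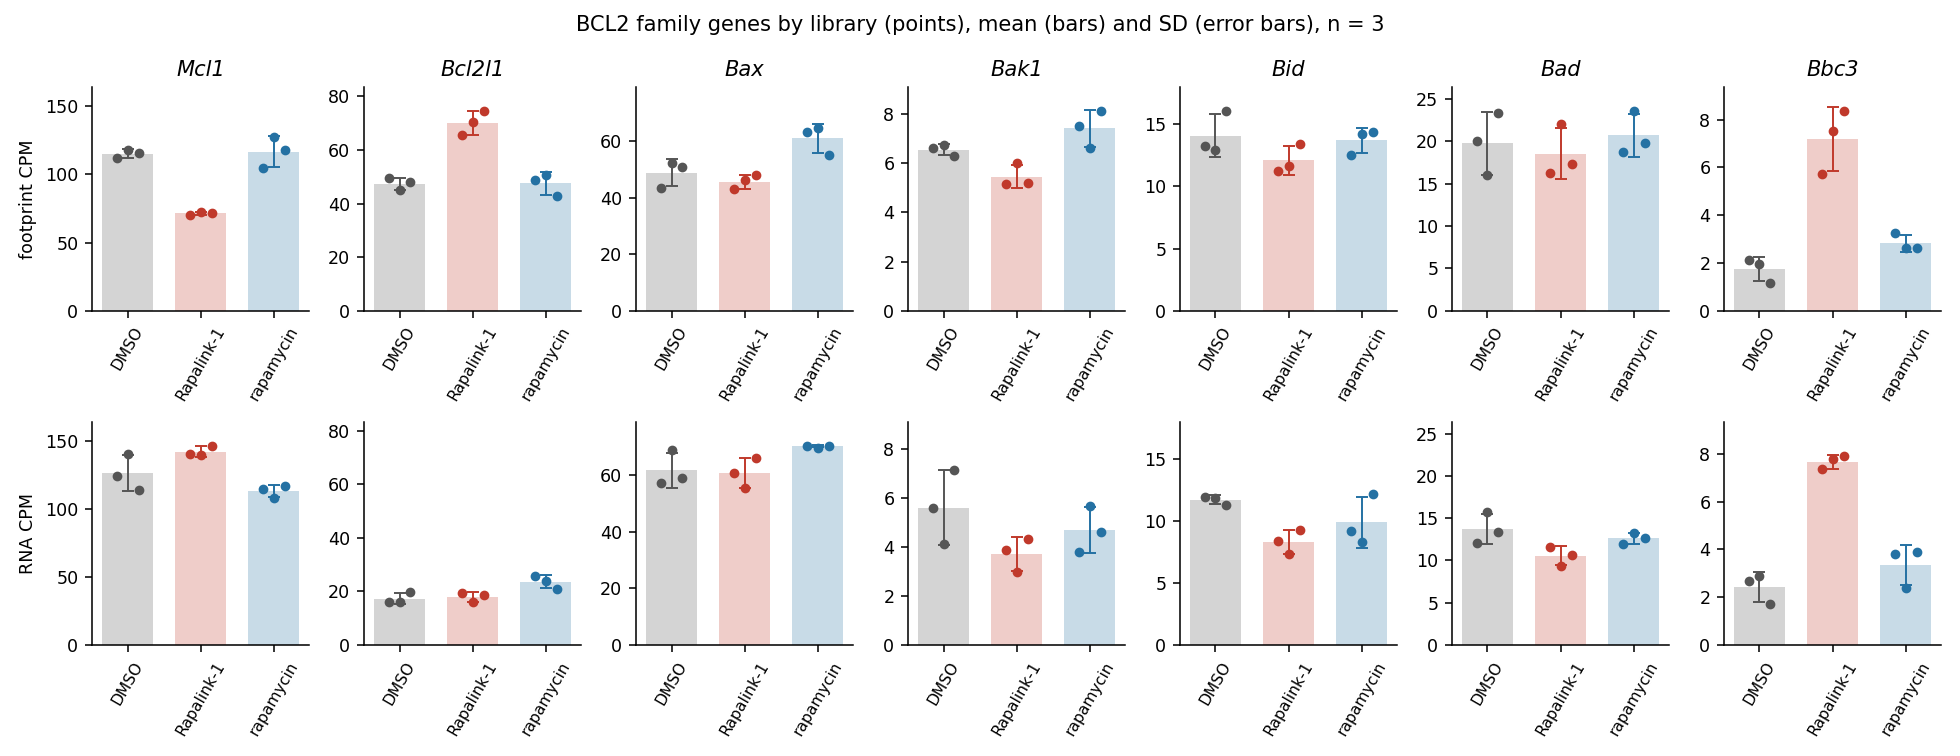
CPM of 7 BCL2 family genes (columns) in footprint and RNA libraries (rows) by treatment, with a point per library, bars at the mean and error bars of 1 SD (n = 3); both panels of a gene share an axis that starts at 0. Rapalink-1 points of Mcl1 footprints (70.4 to 72.3) lie below the rest, those of Bcl2l1 footprints and of Bbc3 in both assays lie above the rest, and Bax footprints are highest with rapamycin (55.2 to 64.6).

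The treated groups were also compared with each other directly, at 50 nM Rapalink-1 against 5 nM rapamycin. In RNA 2 of 7 members were higher with Rapalink-1 and 2 lower, beside 19.6 and 21.5% of all genes (41.1% in either direction). In footprints 2 were higher and 3 lower, beside 25.4 and 27.6% (53.1%), and in efficiency 1 was higher and 1 lower, beside 26.1 and 23.9% (50.1%). Mcl1 was lower with Rapalink-1 in footprints (-0.71 ± 0.068, adjusted p = 1.6e-11) and efficiency (-1.0 ± 0.093, adjusted p = 2.6e-13) and higher in RNA (0.33 ± 0.061, adjusted p = 2.3e-05). Under library totals its RNA value was 0.19 (adjusted p = 0.010). Bcl2l1 showed each of these the other way round: it was higher in footprints (0.56 ± 0.077, adjusted p = 7.4e-08) and efficiency (0.99 ± 0.13, adjusted p = 1.1e-08) and lower in RNA (-0.39 ± 0.11, adjusted p = 0.0051). That RNA call was lost without Rapalink-1 replicate 2 (-0.31, adjusted p = 0.052).

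Bbc3 was higher with Rapalink-1 than with rapamycin in RNA (1.21 ± 0.22, adjusted p = 1.3e-05) and footprints (1.33 ± 0.24, adjusted p = 1.4e-05). Its efficiency differed by 0.16 ± 0.32 (adjusted p = 0.72), with a 95% interval from -0.49 to 0.81. Both pore formers had fewer footprints with Rapalink-1, Bax by -0.42 ± 0.082 (adjusted p = 3.7e-05) and Bak1 by -0.45 ± 0.18 (adjusted p = 0.036). Under library totals these were -0.20 (adjusted p = 0.034) and -0.23 (adjusted p = 0.28). DESeq2's Wald test lost the Bak1 call too (adjusted p = 0.066), as did leaving out Rapalink-1 replicate 1 or 3 or rapamycin replicate 1 or 3 (adjusted p from 0.073 to 0.13). Bax RNA was lower by -0.21 ± 0.071 (adjusted p = 0.017), or -0.35 under library totals, and the call was lost without Rapalink-1 replicate 2 (adjusted p = 0.15). For Bid and Bad no difference between the drugs was called in RNA, footprints or efficiency. Under library totals, RNA of Bid (-0.38, adjusted p = 0.046) and Bad (-0.40, adjusted p = 0.016) and efficiency of Bad (0.46, adjusted p = 0.039) passed the test.

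Other genes of the apoptosis pathway were read from 4 lists, and the values below are changes of translational efficiency. Each list's counts stand beside 22.3% of all genes higher and 19.9% lower with Rapalink-1, and 6.52% higher and 9.85% lower with rapamycin. Under library totals 5563 of all 10988 genes were higher and 841 lower with Rapalink-1, so a list's counts under that setting move with those of all genes. The lists are described by their counts, and nothing is called particular to them. Of 18 further BCL2 family and BH3 genes, 8 had a row, and with Rapalink-1 2 rose and 1 fell, at a list median of 0.03 beside 0.058 over all genes. With rapamycin 1 rose and 0 fell. Becn1, a BH3 protein of autophagy that BCL2 binds, rose with both drugs, by 0.41 ± 0.099 (adjusted p = 6.2e-04) and 0.38 ± 0.097 (adjusted p = 0.0042), or by 0.78 and 0.42 under library totals. Bnip2 rose by 0.46 ± 0.091 with Rapalink-1, or 0.83 under library totals. Its RNA fell by 0.60 ± 0.059, from 122 ± 5.33 to 80.6 ± 2.77 CPM (SD, n = 3). Its footprints fell by less, 0.18 ± 0.075 (adjusted p = 0.042), a call lost under library totals (0.09, adjusted p = 0.29). Bnip1 fell by 0.51 ± 0.17 (adjusted p = 0.011), a call lost under library totals (-0.14, adjusted p = 0.47).

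Downstream of the mitochondrion, 13 of 14 caspase and apoptosome genes had a row. With Rapalink-1, 1 rose and 2 fell, at a median of -0.09, and under library totals 6 rose and 0 fell, at 0.28. With rapamycin 2 rose and 0 fell. Apaf1, the scaffold that cytochrome c assembles into the apoptosome, rose by 0.83 ± 0.17 with Rapalink-1 (adjusted p = 7.1e-05), as its footprints went from 12.5 ± 0.517 to 20.4 ± 1.86 CPM (SD, n = 3). Cycs, cytochrome c itself, fell with Rapalink-1 in footprints by 0.63 ± 0.057 and in RNA by 0.38 ± 0.052. Its efficiency was -0.21 ± 0.079 (adjusted p = 0.030) with Rapalink-1, a direction that flipped to 0.16 under library totals, and it rose by 0.34 ± 0.078 with rapamycin. Endog, a mitochondrial nuclease, had -0.60 ± 0.19 with Rapalink-1 (adjusted p = 0.0099), not called under library totals (-0.23, adjusted p = 0.30), and rose by 0.66 ± 0.18 with rapamycin. With rapamycin, footprints of neither gene were called (Cycs 0.08, adjusted p = 0.35, Endog 0.22, adjusted p = 0.31). RNA of both fell with rapamycin, Cycs by 0.26 ± 0.052 (adjusted p = 1.7e-04) and Endog by 0.43 ± 0.10 (adjusted p = 0.0015).

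Of 13 inhibitors of apoptosis and death receptor genes, 8 had a row, and with Rapalink-1 4 rose and 0 fell, at a median of 0.26, or 7 and 0 under library totals. With rapamycin 1 rose and 1 fell. Xiap, which inhibits caspases directly, rose by 0.49 ± 0.17 (adjusted p = 0.014), and Birc2, a ubiquitin ligase of the same family, by 0.54 ± 0.12 (adjusted p = 3.2e-04). Under library totals these were 0.86 for Xiap and 0.90 for Birc2. Birc2 also rose in RNA with Rapalink-1, from 42.3 ± 0.689 to 58.4 ± 2.94 CPM (SD, n = 3). Birc6, a giant member of the family, rose by 0.38 ± 0.09 with Rapalink-1 and fell by 0.76 ± 0.09 with rapamycin, under library totals too (0.75 and -0.72). With Rapalink-1 its footprints were not called (0.08, adjusted p = 0.38), while its RNA fell by 0.27 ± 0.054. Under library totals the footprints of Birc6 passed the test (0.35, adjusted p = 3.25e-04). Fadd, the death receptor adaptor, rose by 0.88 ± 0.32 with Rapalink-1 (adjusted p = 0.025). Neither its footprints (0.22, adjusted p = 0.33) nor its RNA (-0.62, adjusted p = 0.062) were called. Under library totals both passed the test (0.49, adjusted p = 0.021, and -0.75, adjusted p = 0.018). Its RNA level was low, at 4.75 CPM with DMSO and 3.15 with Rapalink-1.

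The longest list held partners of BCL2 proteins and genes of their turnover, of which 22 of 24 had a row. With Rapalink-1, 9 rose and 5 fell, at a median of 0.16, or 15 and 2 under library totals, and with rapamycin 3 rose and 7 fell, or 3 and 5. Huwe1, a ubiquitin ligase of MCL1, rose by 0.87 ± 0.085 with Rapalink-1 and fell by 0.84 ± 0.084 with rapamycin (adjusted p = 5e-11 and 2.1e-09). Its RNA was 336 ± 0.688 CPM with DMSO, 259 ± 5.64 with Rapalink-1 and 535 ± 37.1 with rapamycin (SD, n = 3), the order opposite to that of its efficiency. Efficiency takes the RNA change off the footprint change, so an opposite order is partly built into the measure. Gsk3b, a kinase that primes MCL1 for degradation, likewise rose by 0.99 ± 0.13 and fell by 0.41 ± 0.12 (adjusted p = 4.9e-09 and 0.014). With Rapalink-1, footprints rose by 0.45 ± 0.066 for Huwe1 and by 0.55 ± 0.067 for Gsk3b. With rapamycin, neither gene's footprints were called (Huwe1 -0.17, adjusted p = 0.085, Gsk3b -0.08, adjusted p = 0.45), while RNA rose by 0.67 ± 0.046 and 0.33 ± 0.11.

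Usp9x, the deubiquitinase that protects MCL1, moved the same way in efficiency as Huwe1 and Gsk3b, with 0.81 ± 0.11 and -0.34 ± 0.11 (adjusted p = 1.2e-06 and 0.032). It was chosen after its values were seen. At the other end of the list, Tpt1, a growth-linked protein that binds MCL1, had -3.39 ± 0.07 with Rapalink-1 and -1.01 ± 0.068 with rapamycin. Vdac1, a channel of the outer mitochondrial membrane that binds BCL2 proteins, fell by 1.37 ± 0.066 with Rapalink-1, and its footprints went from 1380 ± 84.6 to 634 ± 12.3 CPM (SD, n = 3). With rapamycin Vdac1 stood at -0.20 ± 0.066 (adjusted p = 0.026), and this call was lost under library totals (-0.16, adjusted p = 0.089).

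**Figure D5:**
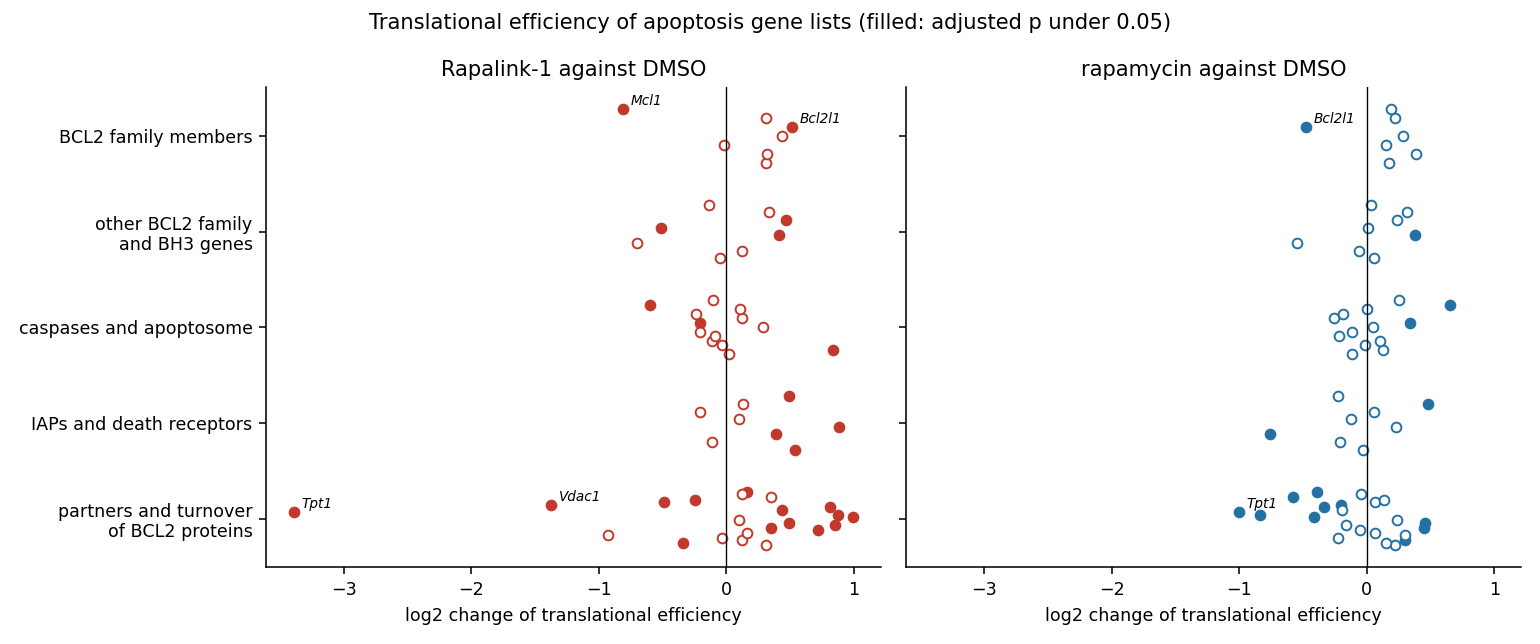
Log2 change of translational efficiency (horizontal axes) of single genes, in rows for the 7 BCL2 family members and 4 lists of apoptosis genes, with Rapalink-1 (left) and rapamycin (right) against DMSO. Filled points have an adjusted p under 0.05, vertical scatter within a row has no meaning, and Tpt1 at -3.39 and Vdac1 at -1.37 lie farthest left with Rapalink-1.

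The genes most like a member were sought among 7018 genes with a mean log2 CPM of at least 4, by Euclidean distance over 4 log2 changes, those of RNA and footprints with each drug. Nearest to Mcl1 were Rpn2 at a distance of 0.092, Taldo1 at 0.11 and Dera at 0.11. Rpn2, a subunit of the enzyme that glycosylates secreted proteins, had RNA changes of 0.16 and -0.12 and footprint changes of -0.77 and 0.01 with Rapalink-1 and rapamycin. Nearest to Bbc3 were Foxo3 at 0.66, Klf9 at 0.71 and Nr1d2 at 0.73. Bbc3 itself, at a mean log2 CPM of 2.14, lies below the floor of the search, so genes at its own level were not searched. Its changes also have larger standard errors than those of Mcl1, so the distances of the members are not compared. Foxo3, a FoxO transcription factor, had RNA changes of 1.22 with Rapalink-1 and 0.59 with rapamycin, and footprint changes of 1.67 and 1.04. Both drugs share the DMSO libraries in these distances. The third gene meant for this search, Bcl2l11, had no row.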

How the data were processed

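A small aliquot of each lysate was taken for total RNA, and the ARTseq kit made both kinds of library, per the labels' protocols. The build was GRCm38 per the submitters' processing notes. For the aligner, the counting program, its strand setting and the annotation, the status is: not given in the sources used here. Whole-number read counts per transcript are in the deposited table, which holds values not normalized by the authors. In the authors' deposited comparison tables, baseMean is a signal (a mean of normalized counts), log2FoldChange and lfcSE are log2 values, stat is a score and pvalue and padj are p-value columns, per the file headers.

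Of 27382 transcript rows, those that shared all counts or an Ensembl gene were joined, and symbols came from the authors' tables. Genes passing filterByExpr (minimum count 10, minimum total 15) in each assay of a fit were kept: 11271 for RNA, 11281 for footprints and 10988 for efficiency. Counts were fitted with edgeR 4.0.16 (TMM, robust glmQLFit, glmQLFTest) in R 4.3.3, over 9 libraries per assay, or over 18 with the interaction of assay and treatment for efficiency. Adjusted p-values follow Benjamini and Hochberg, and 95% intervals use the fit's residual degrees of freedom. The biological coefficient of variation was 5.72, 6.38 and 6.05%. The fits were tested on simulated data with known changes. With Rapalink-1 against DMSO, log2 changes of 0.5 were recovered in 85% of cases in RNA, 82% in footprints and 59% in efficiency. For changes of 1 it was 99, 99 and 96%. A small set of genes was changed there, none with low counts. The simulation therefore did not test TMM where many genes change, nor members with few reads.

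Alternatives were other scalings, no filter, the Wald test of DESeq2 1.42.0, replicate blocks, only the treatments compared and leaving out each replicate. All members were described; from each list up to 4 genes with the smallest p in efficiency with Rapalink-1 were named among those past the test. A result on 1 withheld item is not reported here. Members, lists and rules were chosen with earlier results of these data known.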

Additional observations from a re-analysis of the deposited data

How the results depend on the processing

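Called members kept their direction under all alternatives run: other scalings, no count filter, the DESeq2 Wald test, replicate blocks, only the treatments compared, and leaving out each replicate. The count of members called in RNA with rapamycin went from 2 to 1 under library totals, with the DESeq2 Wald test, with a replicate block (Mcl1 at -0.16, adjusted p = 0.076) and with only the treatments compared. The count in efficiency with Rapalink-1 went from 2 to 6 under library totals. The replicate block, or in efficiency a block for each treatment and number, changed no other member's call. Replicate numbers were not taken to pair the samples, since not every same-numbered pair correlated over 0.1. Across treatments 0 of 9 RNA pairs did (-0.155 to 0.037), against 3 of 18 with different numbers. In footprints 5 of 9 did (-0.171 to 0.199), against 2 of 18 with different numbers. Of pairs of RNA and footprints of a treatment, 3 of 9 did (-0.074 to 0.174), against 0 of 18 with different numbers. The last 3 were the DMSO pairs (0.163, 0.174 and 0.145). RNA was drawn as an aliquot of a lysate, per the labels, which do not say that equal numbers mark a shared lysate. The library names give the same treatment and number in both assays. The correlations do not settle whether samples were paired by design. Of 36 comparisons of a library with those of another treatment in its assay, 12 were closest to their own number, each with 3 numbers to choose from. Leaving out 1 replicate gave 1 to 4 members called in RNA with Rapalink-1 (1 without its replicate 2), 1 to 2 with rapamycin and 2 to 4 between the drugs; 0 to 1 in footprints with rapamycin; and 0 to 1 in efficiency with rapamycin.

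Values that changed sign were not called under TMM. Under library totals they were, in RNA with Rapalink-1, Bcl2l1 (-0.054); in footprints with Rapalink-1, Bax (0.182), Bak1 (0.002), Bid (0.049) and Bad (0.155); with rapamycin, Bcl2l1 (0.045) and Bid (0.012); between the drugs, Bid (0.038) and Bad (0.055); in efficiency, Bax (0.346 with Rapalink-1, 0.152 between the drugs) and Bak1 (0.262 between the drugs). With a replicate left out, the ranges that crossed 0 were, with Rapalink-1, Bax RNA (-0.091 to 0.07), Bad footprints (-0.253 to 0.005) and Bax efficiency (-0.096 to 0.036). With rapamycin they were footprints of Mcl1 (-0.048 to 0.092), Bcl2l1 (-0.054 to 0.069), Bid (-0.092 to 0.062) and Bad (-0.063 to 0.174) and Bad efficiency (-0.056 to 0.313). Between the drugs they were efficiency of Bak1 (-0.317 to 0.081), Bid (-0.037 to 0.232), Bad (-0.086 to 0.298) and Bbc3 (-0.014 to 0.322). Of 378 such values 330 kept direction and side of the threshold. The cause of these changes was not tested. Bak1 and Bbc3 had the fewest reads of the members, 34 to 103 and 11 to 91 per library.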
